A study of Mus musculus with 18 samples.

Results

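The 10 genes described here encode the machinery that makes, carries and displays peptides on MHC class I in mouse cells: the class I heavy chains H2-K1 and H2-D1, their light chain B2m, the transporter subunits Tap1 and Tap2, the loading factor Tapbp, the immunoproteasome subunits Psmb8, Psmb9 and Psmb10, and the transactivator Nlrc5. They were chosen by symbol, all 10 were found among the 24052 genes of the deposited tables, and all 10 passed the filter on low counts in both experiments. RNA was read from the 3′ end of polyadenylated transcripts of C57BL/6 bone marrow-derived macrophages, which had been matured with 20 ng/ml M-CSF. Experiment 1 used wild-type cells and the compound dimethyl itaconate (DI), a cell-permeable ester of the macrophage metabolite itaconate. Its groups were DI plus LPS (0.25 mM DI over 12 h, followed by 4 h of E. coli 0111:B4 lipopolysaccharide at 100 ng/ml), LPS after vehicle, DI without LPS, and vehicle without LPS. Experiment 2 compared macrophages lacking Irg1 (Irg1-/-), the gene of the enzyme that makes itaconate, with wild-type macrophages, all kept for 24 h in interferon gamma (50 ng/ml) together with LPS (100 ng/ml). Each group had 3 libraries. The sources used here do not say whether these came from separate animals, so p-values measure the spread between libraries, which may be technical.

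MHC class I molecules show peptides from inside the cell to CD8+ T cells. Proteasomes cut proteins into peptides, and in cells exposed to interferons the catalytic subunits Psmb5, Psmb6 and Psmb7 are replaced in newly made proteasomes by Psmb8, Psmb9 and Psmb10. The Tap1-Tap2 transporter moves the peptides into the endoplasmic reticulum, where tapasin, the product of Tapbp, holds the transporter next to empty class I molecules. Nlrc5 activates transcription of class I genes through the SXY promoter module, and interferon gamma and NF-kappa B signalling also raise class I transcription.

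The smallest and largest libraries held 955718 and 7629669 counts in experiment 1, and 3088644 and 5491684 in experiment 2. Levels are given as CPM, the counts scaled to a common library total with TMM factors, and are compared between groups of 1 experiment and not between genes. LPS replicate 3 stood apart: it had the lowest total, and the peroxiredoxin gene Prdx1 took 17.6% of its counts, against 3.81% and 3.28% in the other LPS libraries, so results that rest on it are also given without it. The targeted gene Irg1, listed as Acod1, was at 28.5, 14.9 and 31.5 CPM in Irg1-/- libraries, against 4142, 4677 and 4237 CPM in wild-type libraries. All 8 macrophage markers examined were detected in every group, with summed unscaled CPM of 3414 to 4618 with DI plus LPS, 2951 to 3888 with LPS, 3460 to 5051 with DI and 7519 to 10535 with vehicle, and of 2092 to 2738 in Irg1-/- and 2282 to 2714 in wild-type cells. Sums for 7 neutrophil markers were 150 to 517 (experiment 1) and 9.10 to 16.5 (experiment 2), and those for 5 stromal markers 9.25 to 77.6. Sums for 7 dendritic cell markers reached at most 25.3, for 7 T and NK cell markers 7.18 and for 4 B cell markers 4.14, with Flt3 and Cd8a at 0 in every group. Macrophage marker sums thus differed between DI or LPS and vehicle libraries, and their part in the results below was not tested. In such bulk samples fewer cells of a type and less RNA per cell cannot be told apart.

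LPS raised all 10 genes, and DI given before LPS left 5 of them lower than LPS alone. Without LPS replicate 3 these counts were 9 and 3 (H2-D1 was no longer called higher, nor H2-K1 and Psmb10 lower), and with scaling by library totals alone, which lowered the median of all genes in LPS against vehicle from -0.24 to -1.17 on the log2 scale, they were 8 and 3 (H2-D1 and B2m no longer higher, Psmb8 and Psmb10 no longer lower). Of the 5 lower genes, Tap2 and Psmb9 passed in every alternative fit tried, including each fit that left out a library. DI alone lowered Psmb9, a call lost in 5 of 12 fits that left out a library. In the Irg1-/- comparison no member passed without a replicate block, where 0.0632% of 9491 genes did. With the replicate number as a block Tap2 alone passed, where 594 of 9491 genes did. Tests were made with edgeR's quasi-likelihood fit, and a gene passed at an adjusted p under 0.05 over all tested genes. LPS against vehicle had 10 of 10 members higher, where 16% of the 10285 tested genes were higher, and the members' median log2 fold change was 2.60 against -0.24 for all genes. DI plus LPS against DI had 8 of 10 higher, where 11.4% of all genes were, with medians of 2.15 and -0.06. DI plus LPS against LPS had 5 of 10 lower, where 7.53% of all genes were, with medians of -0.82 and 0.13. DI against vehicle had 1 of 10 lower, where 1.51% of all genes were, with medians of -0.51 and -0.05. These comparisons share libraries: LPS against vehicle shares its LPS libraries with DI plus LPS against LPS and its vehicle libraries with DI against vehicle. Groups did not overlap for 9 of 10 members in LPS against vehicle (16.6% of all genes), for 10 of 10 in DI plus LPS against DI (22.3%), for 8 of 10 in DI plus LPS against LPS (10.7%, lower) and for 5 of 10 in DI against vehicle (16%, lower). The change in the LPS response with DI, tested as an interaction, passed for 0 of 10 members by edgeR and by DESeq2, where edgeR called 2.91% of all genes, and Tap2 alone had an unadjusted p under 0.05 (0.013). In 9 of 10 members the mean log2 CPM ran upward from DI to vehicle, DI plus LPS and LPS, an order that 8.37% of all tested genes (861 of 10285) shared. The order was noticed in the data and has no test. H2-D1 was the exception, its vehicle mean lying below that of DI.

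**Figure D1:**
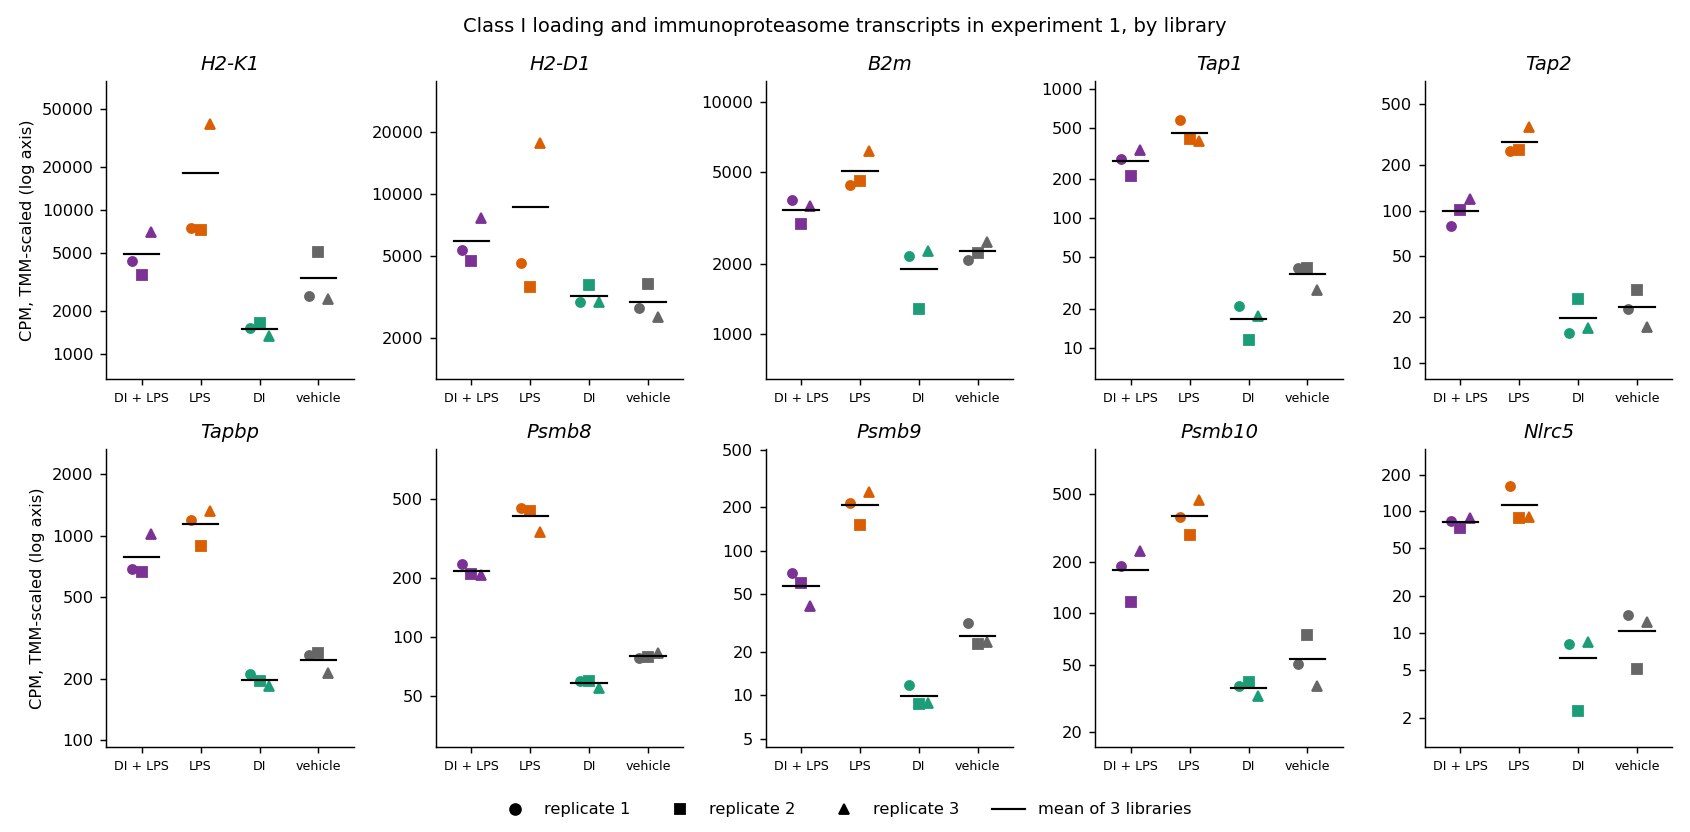
TMM-scaled CPM of the 10 genes (log axis) in each of the 12 libraries of experiment 1, with groups from left to right DI plus LPS, LPS, DI and vehicle; marker shapes give the replicate number and lines the mean. LPS libraries lie above vehicle libraries in all panels except H2-D1, and LPS replicate 3 lies far above the other LPS libraries in H2-K1 (39222 CPM) and H2-D1 (17674 CPM).

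The plot of CPM by library shows 2 kinds of pattern. In B2m, Tap1, Tap2, Tapbp, Psmb8, Psmb9, Psmb10 and Nlrc5 every library given LPS, with or without DI, lay above every DI and vehicle library. In H2-K1 and H2-D1 these libraries overlapped, and the LPS group was spread widely.

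H2-K1 (Entrez gene 14972, chr17:33996012-34000619, GRCm38) encodes the heavy chain H-2K, which binds the peptide. It was at 4424, 3546 and 7003 CPM in DI-plus-LPS libraries, 7470, 7264 and 39222 CPM in LPS libraries, 1521, 1650 and 1339 CPM in DI libraries, and 2518, 5137 and 2396 CPM in vehicle libraries. The groups did not overlap in LPS against vehicle, in DI plus LPS against LPS, or in DI against vehicle. LPS raised it (log2 fold change 2.42 ± 0.56 SE, edgeR quasi-likelihood test, Benjamini-Hochberg adjusted p = 0.00265). Without LPS replicate 3 the log2 fold change was 1.17 (adjusted p = 0.00939), and 1.30 when scaled by library totals alone (adjusted p = 0.0267). It was lower with DI plus LPS than with LPS (log2 -1.85 ± 0.55, edgeR adjusted p = 0.0284), and this rested on LPS replicate 3, since without it the fold change was -0.58 and the adjusted p 0.252. The call was also lost without DI-plus-LPS replicate 1 or 2 (edgeR adjusted p = 0.114 and 0.12). DI alone gave log2 -1.16 ± 0.54, which did not pass with all libraries (edgeR adjusted p = 0.346) and passed without LPS replicate 3, a library in neither group that enters the shared spread (log2 -1.13, adjusted p = 0.0269). The LPS effect after DI was log2 1.73 ± 0.55 (edgeR adjusted p = 0.0319), a call lost in 5 of 12 fits that left out a library and with library totals (log2 1.14, adjusted p = 0.0787).

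H2-D1 (Entrez gene 14964, chr17:35263094-35267497) encodes the heavy chain H-2D. Its levels were 5348, 4733 and 7684 CPM with DI plus LPS, 4606, 3557 and 17674 CPM with LPS, 2999, 3610 and 2979 CPM with DI, and 2812, 3649 and 2522 CPM with vehicle. The LPS and vehicle groups overlapped, since LPS replicate 2 lay below vehicle replicate 2. The LPS call (log2 1.52 ± 0.47, edgeR adjusted p = 0.018) was lost without LPS replicate 3 (log2 0.48, adjusted p = 0.196), without vehicle replicate 1 or 3 (adjusted p = 0.0596 and 0.0726), and with library totals (log2 0.41, adjusted p = 0.388). The fold change in DI plus LPS against LPS was -0.54 ± 0.46 on the log2 scale (edgeR adjusted p = 0.472), and its sign changed without LPS replicate 3 (0.52). DI against vehicle gave 0.09 ± 0.46 (edgeR adjusted p = 0.956). DI plus LPS against DI gave 0.89 ± 0.46 (edgeR adjusted p = 0.212), and 0.88 with an adjusted p of 0.015 without LPS replicate 3.

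B2m (Entrez gene 12010, chr2:122147687-122153082) encodes beta 2-microglobulin, the light chain that every class I molecule needs to fold. It stood at 3779, 2993 and 3557 CPM with DI plus LPS, 4378, 4574 and 6141 CPM with LPS, 2162, 1282 and 2273 CPM with DI, and 2097, 2234 and 2500 CPM with vehicle. LPS raised it 2.21-fold (log2 1.14 ± 0.31, edgeR adjusted p = 0.00767), and the groups did not overlap. The call was lost when libraries were scaled by their totals alone (log2 0.14, edgeR adjusted p = 0.701). Against DI, DI plus LPS gave log2 0.85 ± 0.30 (edgeR adjusted p = 0.0593), which passed with DESeq2 (adjusted p = 0.0471) and without LPS replicate 3 (edgeR adjusted p = 0.0167). Against LPS, DI plus LPS gave log2 -0.55 ± 0.30, which did not pass (edgeR adjusted p = 0.243), with no overlap of the libraries.

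The promoters of these 3 genes are printed because class I transcription is known to be driven through a sequence module they carry, and because those of H2-K1 and H2-D1 are near copies. Windows of 300 bases, 250 before and 50 after an annotated transcript start, were taken from RefSeq (GRCm38.p6), which gave windows for 8 of the 10 members. The H2-K1 window (for one of its 2 listed starts) is chr17:34000284-34000583 on the minus strand, the H2-D1 window chr17:35262844-35263143 on the plus strand, and the B2m window chr2:122147437-122147736 on the plus strand. Capitals mark matches to motifs: GGGATTCCC, the class I kappa B element bound by NF-kappa B; GAANNGAAA and GAAANNGAA, cores of the interferon-stimulated response element that differ in spacing; TTCNNNGAA, the gamma-activated site; CCAAT; and TGACG followed after 20 bases by ATTGG, spaced like the cyclic-AMP-type and inverted CCAAT parts of the SXY module.
H2-K1: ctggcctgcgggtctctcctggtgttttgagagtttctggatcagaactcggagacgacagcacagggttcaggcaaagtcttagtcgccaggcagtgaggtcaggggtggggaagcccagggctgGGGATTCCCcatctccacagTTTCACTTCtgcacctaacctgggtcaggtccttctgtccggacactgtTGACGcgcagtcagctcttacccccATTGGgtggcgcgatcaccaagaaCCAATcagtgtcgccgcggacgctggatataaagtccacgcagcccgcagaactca
H2-D1: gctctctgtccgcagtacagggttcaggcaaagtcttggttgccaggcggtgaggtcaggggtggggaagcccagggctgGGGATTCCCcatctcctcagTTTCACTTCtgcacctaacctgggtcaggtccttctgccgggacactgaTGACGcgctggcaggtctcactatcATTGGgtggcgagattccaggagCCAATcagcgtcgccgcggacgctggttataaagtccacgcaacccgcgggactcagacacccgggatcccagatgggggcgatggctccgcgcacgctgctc
B2m: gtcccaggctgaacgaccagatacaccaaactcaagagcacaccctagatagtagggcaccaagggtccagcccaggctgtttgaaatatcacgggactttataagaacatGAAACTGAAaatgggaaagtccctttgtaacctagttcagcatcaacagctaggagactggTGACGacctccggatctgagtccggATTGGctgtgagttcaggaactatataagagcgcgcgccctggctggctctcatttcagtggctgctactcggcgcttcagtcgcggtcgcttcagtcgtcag

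The H2-K1 and H2-D1 windows were 89.7% identical over 242 aligned bases. Both hold GGGATTCCC, beginning 124 bases before the start in H2-K1 and 170 in H2-D1, and 116 of 32851 promoter windows of the same length (0.353%) hold it on either strand. Both also hold TTTCACTTC, a GAANNGAAA match on the other strand (7.52% of windows), and CCAAT (37.4% of windows). TGACG with ATTGG after 20 bases is in the windows of H2-K1, H2-D1 and B2m and in 31 of 32851 windows (0.0944%), a spacing searched after these sequences had been read. B2m holds GAAACTGAA, a match to GAAANNGAA (8.56% of windows), 139 bases before its start. Motifs were searched on both strands, matches to different motifs may overlap, and the ATTGG of the spaced pair is also a reverse CCAAT match. A match describes the letters in the window and is not a measured site.

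Between the heavy chains, the balance of counts differed from group to group. H2-K1 made up 45.3% ± 2.4 of the summed H2-K1 and H2-D1 counts with DI plus LPS (SD, n = 3), 66% ± 3.7 with LPS, 32% ± 1.4 with DI and 51.5% ± 6.1 with vehicle. The libraries ranged from 42.8% to 47.7%, from 61.9% to 68.9%, from 31% to 33.7% and from 47.3% to 58.5% in the same order of groups, and there was no overlap between DI plus LPS and LPS or between DI and vehicle. LPS replicate 3, at 68.9%, lay near LPS replicate 2 by this measure. In experiment 2 the share was 69.6% to 73.5% in Irg1-/- and 69.5% to 71.9% in wild-type libraries. The share was chosen after its values had been seen and has no test. The transcript ends that a 3′ read samples are partly shared: in the last 300 bases of their longest coding transcripts (GENCODE M21) the longest identical run was 51 bases between H2-K1 and H2-D1 and 41 bases between H2-D1 and H2-T23. The assignment of reads between these copies is therefore uncertain, and the share of counts need not be a share of molecules.

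**Figure D2:**
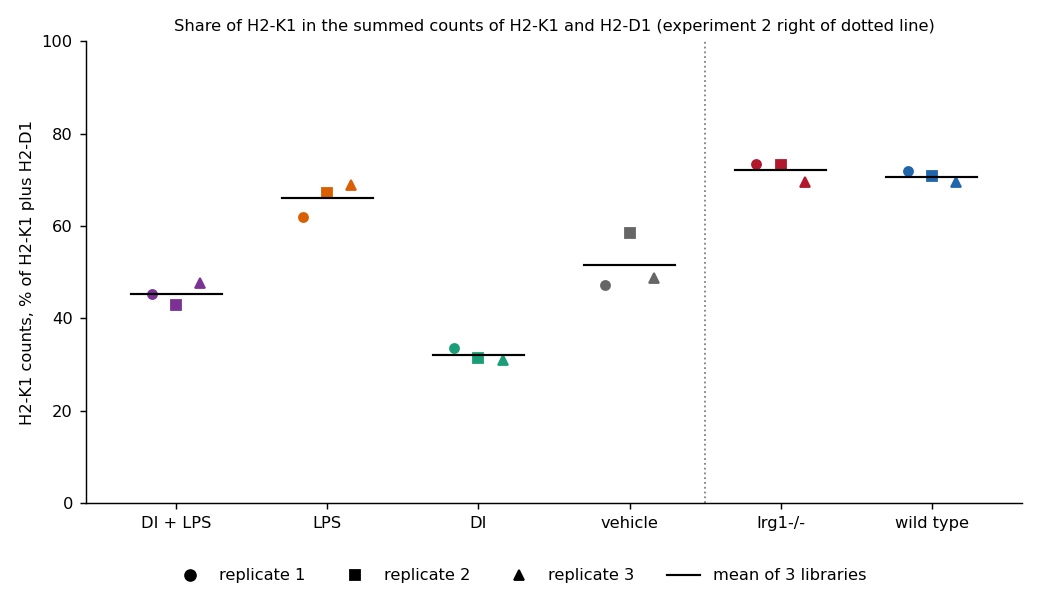
Counts of H2-K1 as a percent of H2-K1 plus H2-D1 counts in each library, with DI plus LPS, LPS, DI and vehicle left of the dotted line and Irg1-/- and wild type (both with LPS and interferon gamma) right of it; shapes give the replicate and lines the mean. DI libraries lie lowest (31% to 33.7%) and DI-plus-LPS libraries (42.8% to 47.7%) lie below all LPS libraries (61.9% to 68.9%).

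The share plot places each DI-treated group below its own untreated group. The Irg1-/- and wild-type ranges overlap, with the Irg1-/- library higher in 3 of 3 same-numbered pairs.

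The transporter genes had the largest fold changes among the members in LPS against vehicle. Tap1 (Entrez gene 21354, chr17:34187556-34197225) was at 287, 211 and 334 CPM with DI plus LPS, 571, 405 and 394 CPM with LPS, 21, 11.4 and 17.6 CPM with DI, and 41.4, 41.5 and 28.1 CPM with vehicle. LPS raised it 16.6-fold after DI (log2 4.05 ± 0.35, edgeR adjusted p = 1.34e-07) and 12.4-fold without DI (log2 3.63 ± 0.34, edgeR adjusted p = 2.44e-07). All 3 DI libraries lay below the vehicle libraries, and log2 -1.14 ± 0.32 lay just outside the threshold (edgeR adjusted p = 0.0657, and 0.0183 without LPS replicate 3). The DI-plus-LPS libraries likewise lay below the LPS libraries, by log2 -0.72 ± 0.31, which did not pass with edgeR (adjusted p = 0.125) and did with DESeq2 (adjusted p = 0.0424).

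Tap2 (Entrez gene 21355, chr17:34204479-34216321), the partner subunit, stood at 79.7, 101 and 118 CPM with DI plus LPS, 244, 247 and 353 CPM with LPS, 15.7, 26.1 and 17.1 CPM with DI, and 22.6, 30.3 and 17.2 CPM with vehicle. All DI-plus-LPS libraries lay below all LPS libraries, and the DI and vehicle libraries overlapped. LPS raised it 5.09-fold after DI (log2 2.35 ± 0.33, edgeR adjusted p = 3.95e-05) and 12.1-fold without DI (log2 3.59 ± 0.35, edgeR adjusted p = 3.31e-07). It was 2.81-fold lower with DI plus LPS than with LPS (log2 -1.49 ± 0.32, edgeR adjusted p = 0.00397), and this call held in every fit that left out a library. The difference between these LPS responses, -1.25 ± 0.45 on the log2 scale, did not pass (edgeR adjusted p = 0.144). For Tap1 the corresponding difference was 0.42 ± 0.44 (edgeR adjusted p = 0.677), with a 95% interval from -0.51 to 1.34.

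Tapbp (Entrez gene 21356, chr17:33919478-33929290), which encodes tapasin, was at 687, 661 and 1019 CPM with DI plus LPS, 1187, 888 and 1325 CPM with LPS, 210, 194 and 185 CPM with DI, and 260, 266 and 214 CPM with vehicle. The LPS response was 4.02-fold after DI (log2 2.01 ± 0.29, edgeR adjusted p = 5.46e-05) and 4.59-fold without DI (log2 2.20 ± 0.29, edgeR adjusted p = 1.42e-05). The DI-plus-LPS libraries overlapped the LPS libraries, and the fold change between them was -0.52 ± 0.28 on the log2 scale (edgeR adjusted p = 0.229). The DI libraries all lay below the vehicle libraries, by -0.33 ± 0.28 (edgeR adjusted p = 0.685).

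**Figure D3:**
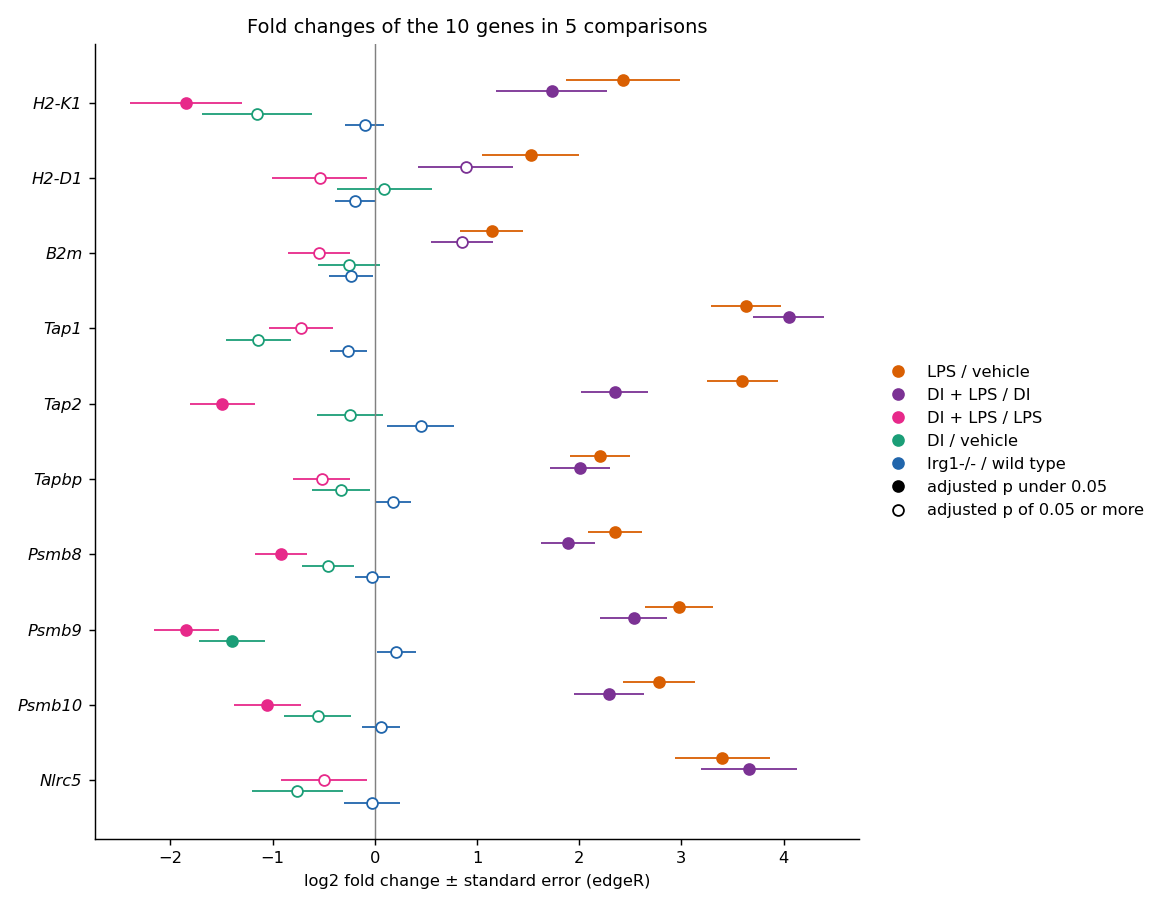
edgeR log2 fold changes with standard errors for the 10 genes in 5 comparisons; filled points passed an adjusted p of 0.05 over all tested genes. LPS effects lie between 0.85 (B2m) and 4.05 (Tap1) after DI and between 1.14 (B2m) and 3.63 (Tap1) without DI. The DI-plus-LPS against LPS values all lie below 0. Irg1-/- against wild type, fitted without the replicate block, lies between -0.26 and 0.45.

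The plot of fold changes sets the LPS effects with and without DI beside each other, and the widest gap between them was that of Tap2 (2.35 after DI and 3.59 without it).

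All 3 immunoproteasome subunits were called lower with DI plus LPS than with LPS, where 7.53% of all genes were. With a library left out, the call held in 12 of 12 fits for Psmb9, 7 for Psmb8 and 4 for Psmb10. Psmb9 (Entrez gene 16912, chr17:34182030-34187330), which replaces the subunit Psmb6, was at 70.1, 59.5 and 41.4 CPM with DI plus LPS, 213, 151 and 253 CPM with LPS, 11.8, 8.76 and 8.92 CPM with DI, and 31.4, 22.8 and 23.4 CPM with vehicle. No 2 of the 4 groups overlapped. DI lowered it both in LPS-treated cells (log2 -1.84 ± 0.32 against LPS, edgeR adjusted p = 0.000725) and alone (log2 -1.40 ± 0.32 against vehicle, edgeR adjusted p = 0.0211). The call with LPS held in every fit that left out a library, and that without LPS was lost when vehicle replicate 1 or 3 or any of the 3 DI libraries was left out (adjusted p from 0.0561 to 0.135). LPS raised Psmb9 5.79-fold after DI (log2 2.53 ± 0.33, edgeR adjusted p = 1.7e-05) and 7.87-fold without DI (log2 2.98 ± 0.33, edgeR adjusted p = 1.77e-06).

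Psmb8 (Entrez gene 16913, chr17:34198195-34201454), which replaces Psmb5, was at 234, 209 and 206 CPM with DI plus LPS, 449, 436 and 340 CPM with LPS, 60.1, 59.9 and 55.2 CPM with DI, and 78.4, 79 and 83.4 CPM with vehicle. Again no 2 groups overlapped. It was 1.89-fold lower with DI plus LPS than with LPS (log2 -0.92 ± 0.26, edgeR adjusted p = 0.0202), a call lost without LPS replicate 1 or 2 or any DI-plus-LPS library (adjusted p from 0.0703 to 0.0896) and with library totals (log2 -0.76, adjusted p = 0.0977). DI against vehicle gave log2 -0.46 ± 0.25, which did not pass (edgeR adjusted p = 0.459) although the libraries did not overlap. LPS raised it 3.70-fold after DI (edgeR adjusted p = 3.37e-05) and 5.10-fold without DI (edgeR adjusted p = 2.18e-06).

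Psmb10 (Entrez gene 19171, chr8:105935728-105938392), which replaces Psmb7, was at 190, 117 and 231 CPM with DI plus LPS, 368, 287 and 462 CPM with LPS, 37.7, 39.5 and 32.8 CPM with DI, and 50.6, 74.9 and 37.4 CPM with vehicle. The DI-plus-LPS libraries lay below the LPS libraries, and the DI and vehicle libraries overlapped. The log2 fold change with DI plus LPS against LPS was -1.05 ± 0.33 (edgeR adjusted p = 0.0375), and with a library left out it ranged from -1.23 to -0.81 and failed the threshold in 8 of 12 fits, that without LPS replicate 3 among them (adjusted p = 0.0521). It also failed with library totals (log2 -0.83, edgeR adjusted p = 0.099). The LPS response was 4.89-fold after DI (edgeR adjusted p = 7.39e-05) and 6.87-fold without DI (edgeR adjusted p = 7.11e-06).

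Psmb9 and Tap1 are neighbours that run in opposite directions from starts 226 bases apart. The window before Psmb9 is shown because it also spans the Tap1 start, and because Psmb9 was called lower with DI plus LPS than with LPS and Tap1 was not, a difference between genes that was not tested. It is chr17:34187281-34187580 on the minus strand, with its single match, ATTGG (a reverse CCAAT) 8 bases before the Psmb9 start and 222 before the Tap1 start, in capitals.
Psmb9: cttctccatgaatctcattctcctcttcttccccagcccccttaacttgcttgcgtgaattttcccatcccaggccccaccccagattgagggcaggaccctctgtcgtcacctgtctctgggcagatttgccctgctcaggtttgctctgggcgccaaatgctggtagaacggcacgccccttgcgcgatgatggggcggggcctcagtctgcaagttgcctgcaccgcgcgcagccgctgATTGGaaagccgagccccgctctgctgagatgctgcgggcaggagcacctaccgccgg

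Per count of Tap1, a library had 0.245, 0.283 and 0.124 counts of Psmb9 with DI plus LPS, 0.373, 0.374 and 0.641 with LPS, 0.563, 0.77 and 0.507 with DI, and 0.76, 0.551 and 0.835 with vehicle. The DI-plus-LPS libraries lay below all LPS libraries and all DI libraries, whereas the DI and vehicle libraries overlapped. This ratio was chosen after its values had been seen and has no test. Among the other members with a window, Psmb8 holds TTCCCAGAA, a match to TTCNNNGAA, which 8.3% of windows hold, 97 bases before its start.

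A proteasome holds either the inducible or the constitutive subunit at each catalytic position, so the log2 ratio of their counts within a library (with 0.5 added to each count) describes the balance of the transcripts without any scaling between libraries. The ratio is compared between groups and not between subunits. Psmb8 over Psmb5 averaged 0.90 ± 0.50 with DI plus LPS, 3.02 ± 0.36 with LPS, 0.03 ± 0.26 with DI and 0.95 ± 0.13 with vehicle (SD, n = 3 each). Psmb9 over Psmb6 averaged -2.03 ± 0.58 with DI plus LPS, 0.44 ± 0.24 with LPS, -3.23 ± 0.27 with DI and -1.54 ± 0.09 with vehicle. For both ratios the DI-plus-LPS libraries lay below the LPS libraries and the DI libraries below the vehicle libraries, with no overlap. Psmb10 over Psmb7 was more variable, at 0.82 ± 0.94, 2.24 ± 1.03, -0.54 ± 0.80 and 0.37 ± 0.51 in the same order of groups, and overlapped in both comparisons.

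The difference between DI-treated and untreated groups was -2.12 ± 0.36 (log2, SE) for Psmb8 over Psmb5 and -2.47 ± 0.36 for Psmb9 over Psmb6 after LPS, and -0.93 ± 0.17 and -1.69 ± 0.16 without LPS. With 3 libraries against 3 a 2-sided exact permutation test cannot go below 0.1, and all 4 of these differences were at that limit (exact permutation p = 0.1, 0.15 adjusted over 15 tests). Of the constitutive genes, Psmb5 was higher with DI plus LPS than with LPS (log2 1.28 ± 0.31, edgeR adjusted p = 0.00917, and not called without DI-plus-LPS replicate 3), at 84.6 to 162 CPM with DI plus LPS against 45.1 to 54.5 CPM with LPS. Psmb6 (log2 0.64 ± 0.28, edgeR adjusted p = 0.131) and Psmb7 (log2 0.17 ± 0.45, edgeR adjusted p = 0.839) did not pass there.

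**Figure D4:**
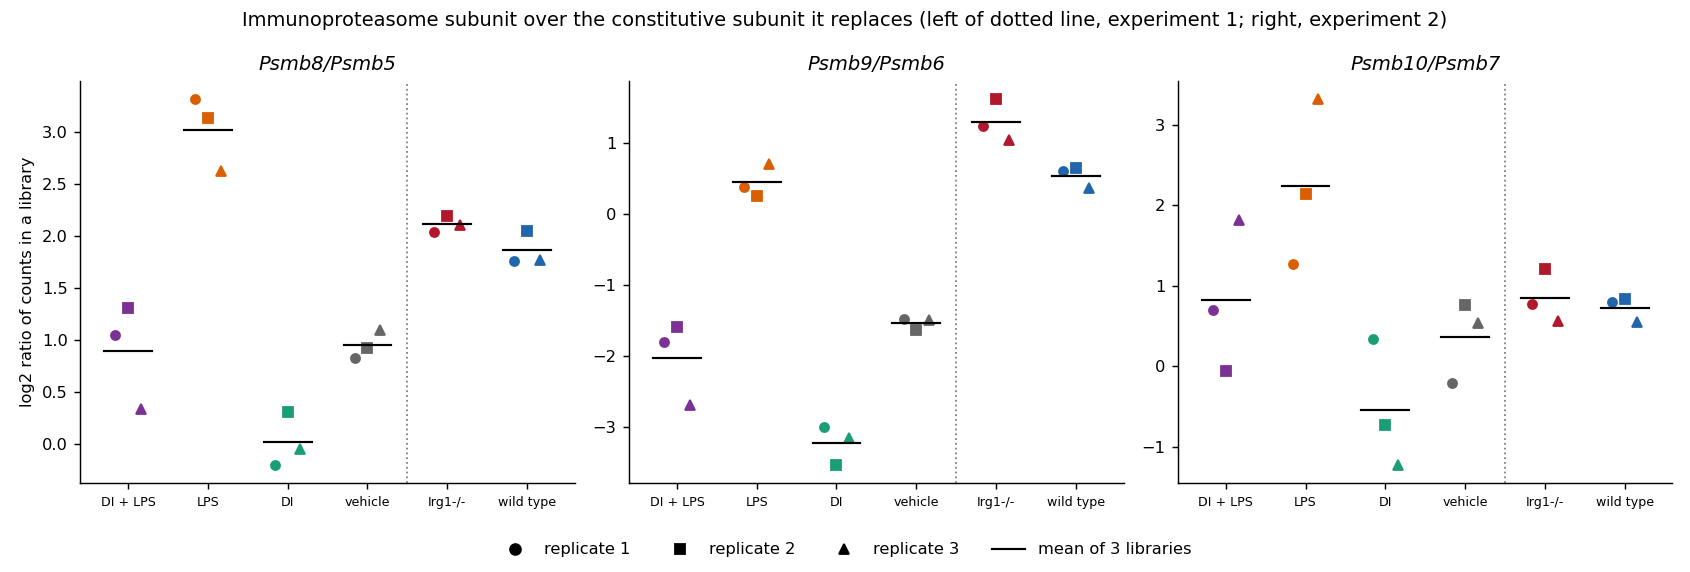
log2 ratio of counts of each immunoproteasome subunit to the constitutive subunit it replaces, per library; groups left of the dotted line are DI plus LPS, LPS, DI and vehicle, and those right of it Irg1-/- and wild type with LPS plus interferon gamma. For Psmb8/Psmb5 and Psmb9/Psmb6 the LPS libraries lie highest in experiment 1 and the DI libraries lowest, and for Psmb9/Psmb6 all Irg1-/- libraries lie above all wild-type libraries.

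In the ratio plot the DI-plus-LPS libraries overlap the vehicle libraries for Psmb8 over Psmb5, at 0.34 to 1.31 against 0.83 to 1.10. For Psmb9 over Psmb6 only DI-plus-LPS replicate 2 (-1.60) lies within the vehicle range of -1.64 to -1.48. Replicates 1 and 3 (-1.80 and -2.69) lie below that range.

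Nlrc5 (Entrez gene 434341, chr8:94434335-94527272) encodes the transactivator that binds with RFX factors to class I promoters and to those of B2m, Tap1 and Psmb9. It was at 83, 72.3 and 87.4 CPM with DI plus LPS, 162, 87.7 and 89.1 CPM with LPS, 8.13, 2.32 and 8.40 CPM with DI, and 14, 5.11 and 12.3 CPM with vehicle. DI replicate 2 and vehicle replicate 2 were the low libraries of their groups, with 14 and 15 counts. LPS raised Nlrc5 12.6-fold after DI (log2 3.66 ± 0.47, edgeR adjusted p = 1.42e-05) and 10.6-fold without DI (log2 3.40 ± 0.46, edgeR adjusted p = 1.85e-05). All DI-plus-LPS libraries lay below the LPS libraries, narrowly. DI plus LPS against LPS gave -0.50 ± 0.42 on the log2 scale (edgeR adjusted p = 0.466), with a 95% interval from -1.38 to 0.39, and DI against vehicle gave -0.76 ± 0.44 (edgeR adjusted p = 0.488), from -1.69 to 0.18. The first interval overlapped that of Psmb9 in DI plus LPS against LPS, which ran from -2.51 to -1.18. A difference between these 2 genes was not tested.

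Over the 4 group means of experiment 1, centred on the log2 scale, the non-member genes nearest to the median of the members were Junb (Euclidean distance 0.11), Bst2 (0.13), Irak2 (0.17) and Tmem243 (0.19), and the member Psmb10 lay among them at 0.18. Bst2 encodes tetherin, an interferon-induced protein that retains virus particles. Nearest to Nlrc5 were Xaf1 (0.20), Irgm2 (0.24), Slfn5 (0.25), Mir1932 (0.26) and Nfkb1 (0.28).

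Other class I chains, mostly nonclassical, did not all move with H2-K1. Of 15 listed genes 10 were tested, and 5 were higher and 2 lower with LPS (median log2 1.19 against -0.24 for all genes). Of all genes 16% were higher and 18.4% lower with LPS. Scaled by library totals alone, 3 of the listed genes were higher and 3 lower. H2-M2 rose 24.9-fold, to 267 to 404 CPM with LPS, against 12.5 to 17.4 CPM with vehicle (edgeR adjusted p = 2.67e-08), and H2-T24 rose 6.60-fold (edgeR adjusted p = 7.24e-06), while Hfe, an iron regulator, and Fcgrt, the neonatal Fc receptor, fell by 3.79 and 1.56 on the log2 scale (edgeR adjusted p = 0.000222 and 0.000794). DI against vehicle had 4 lower, where 1.51% of all genes were. These were Fcgrt (log2 -2.46), Hfe (-2.22), H2-T24 (-1.53) and H2-M2 (-1.44), with edgeR adjusted p from 0.000208 to 0.0267. Among these only Fcgrt passed in every fit that left out a library. A single gene, H2-T24, was lower with DI plus LPS than with LPS, where 7.53% of all genes were (log2 -1.33 ± 0.33, edgeR adjusted p = 0.01). It was at 88.1 to 138 CPM with DI plus LPS against 245 to 315 CPM with LPS. The call was lost without DI-plus-LPS replicate 1 or 3. Against DI, DI plus LPS had 6 higher, where 11.4% of all genes were, with H2-M2 (log2 6.71) and H2-T10 (log2 5.78) furthest.

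In the peptide loading and trimming list 16 of 17 genes were matched and tested. With DI against vehicle 1 of 16 was higher (Calr) and none lower, where 1.33% of all genes were higher and 1.51% lower. Calr, the calreticulin chaperone of the loading complex, was higher with DI plus LPS than with LPS, at 816 to 1322 CPM against 253 to 510 CPM (log2 1.42 ± 0.34, edgeR adjusted p = 0.00833), and higher with DI than with vehicle (log2 1.67 ± 0.34, edgeR adjusted p = 0.00953, lost without vehicle replicate 1 or 2 or DI replicate 2). LPS lowered Calr by a margin that failed in 10 of 12 fits that left out a library (log2 -0.90, edgeR adjusted p = 0.045). Tapbpl, which encodes the tapasin relative TAPBPR, rose with LPS (log2 2.95 ± 0.57, edgeR adjusted p = 0.000635), although LPS replicate 3, with 3 counts, lay at the lower end of the vehicle range. Erap1, the aminopeptidase that trims class I peptides, did not pass in any comparison (log2 0.78 with LPS, edgeR adjusted p = 0.0896). In all, 2 of 16 were higher and 1 lower with LPS, where 16% and 18.4% of all genes were (1 and 7 when scaled by library totals alone). With DI plus LPS against LPS 2 were higher (Calr and Ide, where 8.38% of all genes were higher) and none lower, the same counts as with library totals.

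Among the 28 other core and cap subunits of the proteasome the direction with LPS depended on the scaling. LPS raised 10 of 28 and lowered none with TMM (median log2 0.67), where 16% of all genes were higher and 18.4% lower. Library totals alone gave 1 higher and 5 lower (median -0.32). Psma5 and Psma6 had log2 values of 1.83 and 1.54 with TMM and of 0.91 and 0.60 with library totals, and the call for Psmb3 (log2 1.85) was lost without LPS replicate 3 (log2 0.17). DI plus LPS against LPS had 5 higher and none lower (6 and none with library totals), where 8.38% of all genes were higher. The median log2 was 0.40, against -0.82 for the members. Those higher included the cap subunits Psmc1 (log2 2.08 ± 0.34), Psmd11 (1.59 ± 0.30) and Psmc2 (1.54 ± 0.31), with edgeR adjusted p from 0.000411 to 0.00229. DI against vehicle had 1 of 28 higher, where 1.33% of all genes were (Psmd7, log2 1.41, edgeR adjusted p = 0.014, lost in 5 of 12 fits that left out a library). The activator genes Psme1 and Psme2, which encode the interferon-induced PA28 ring, rose with LPS (log2 1.59 and 2.62, edgeR adjusted p = 0.00126 and 0.00259). The Psme1 call was lost with library totals (log2 0.66, edgeR adjusted p = 0.145) and that of Psme2 was kept (log2 1.75, edgeR adjusted p = 0.0279), although for Psme2 the groups overlapped, at 16.4 to 302 CPM with LPS against 22.1 to 47.5 CPM with vehicle. Neither passed with DI plus LPS against LPS (log2 -0.78 and 0.04).

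Of 23 regulators of class I transcription, 14 were higher and 1 lower with LPS (10 and 5 with library totals), where 16% and 18.4% of all genes were. With DI plus LPS against LPS 5 were lower and none higher (3 and none with library totals), where 7.53% of all genes were lower. The median log2 in that comparison was -0.66. Irf1, the interferon regulatory factor that acts on class I promoters, was at 649 to 740 CPM with DI plus LPS, against 979 to 1496 CPM with LPS (log2 -0.78 ± 0.27, edgeR adjusted p = 0.0563). Irf8, a macrophage interferon regulatory factor, was 12.0-fold lower with DI plus LPS than with LPS (log2 -3.58 ± 0.45, edgeR adjusted p = 4.27e-05, and -2.81 without LPS replicate 3). Ifnar1, a subunit of the type I interferon receptor, was also lower (log2 -2.03, edgeR adjusted p = 0.00415, and -1.13 without LPS replicate 3), as was the kinase gene Jak2 (log2 -1.06, edgeR adjusted p = 0.018, lost in 4 of 12 fits that left out a library). Ifnb1, the interferon beta gene, had 20 counts over the DI-plus-LPS libraries and 91 over the LPS libraries (log2 -3.15 ± 0.76, edgeR adjusted p = 0.0122, lost without DI-plus-LPS replicate 1 or 2). It had none in the DI or vehicle libraries, so LPS raised it at least 13.9-fold after DI and at least 110-fold without DI, taking 3 counts summed over a group as the detection limit. Rfx5, a subunit of the RFX complex through which Nlrc5 acts, did not pass in any comparison and had low counts (70 to 167 per group).

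In experiment 2 none of the members passed without the replicate block, and Tap2 passed with it. Irg1-/- against wild type gave 0 of 10 members by edgeR and by DESeq2, where edgeR called 0.0632% of 9491 genes, and none of the members had an unadjusted p under 0.05. The members' fold changes lay between -0.26 (Tap1) and 0.45 (Tap2) on the log2 scale, and their median was -0.03 against 0.01 for all genes. The 95% intervals reached at most from -0.71 (B2m) to 0.64 (Psmb9) for 9 of the members, and from -0.26 to 1.16 for Tap2, all without the block. Same-numbered libraries deviated together in experiment 2. With the replicate number as a block 594 of 9491 genes passed, and 1 of 10 members, Tap2, was among them (log2 0.50, edgeR adjusted p = 0.012). In fits without the block the Tap2 log2 value was 0.13 when wild-type replicate 1 was left out and 0.16 when Irg1-/- replicate 2 was. Tap2 was higher in 2 of 3 pairs of same-numbered libraries. B2m, Tap1 and Nlrc5 were lower in Irg1-/- cells in 3 of 3 pairs and Tapbp and Psmb9 higher in 3 of 3, and none of these passed with the block (log2 -0.23, -0.26, -0.03, 0.18 and 0.20, edgeR adjusted p = 0.0849, 0.136, 0.917, 0.261 and 0.327).

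**Figure D5:**
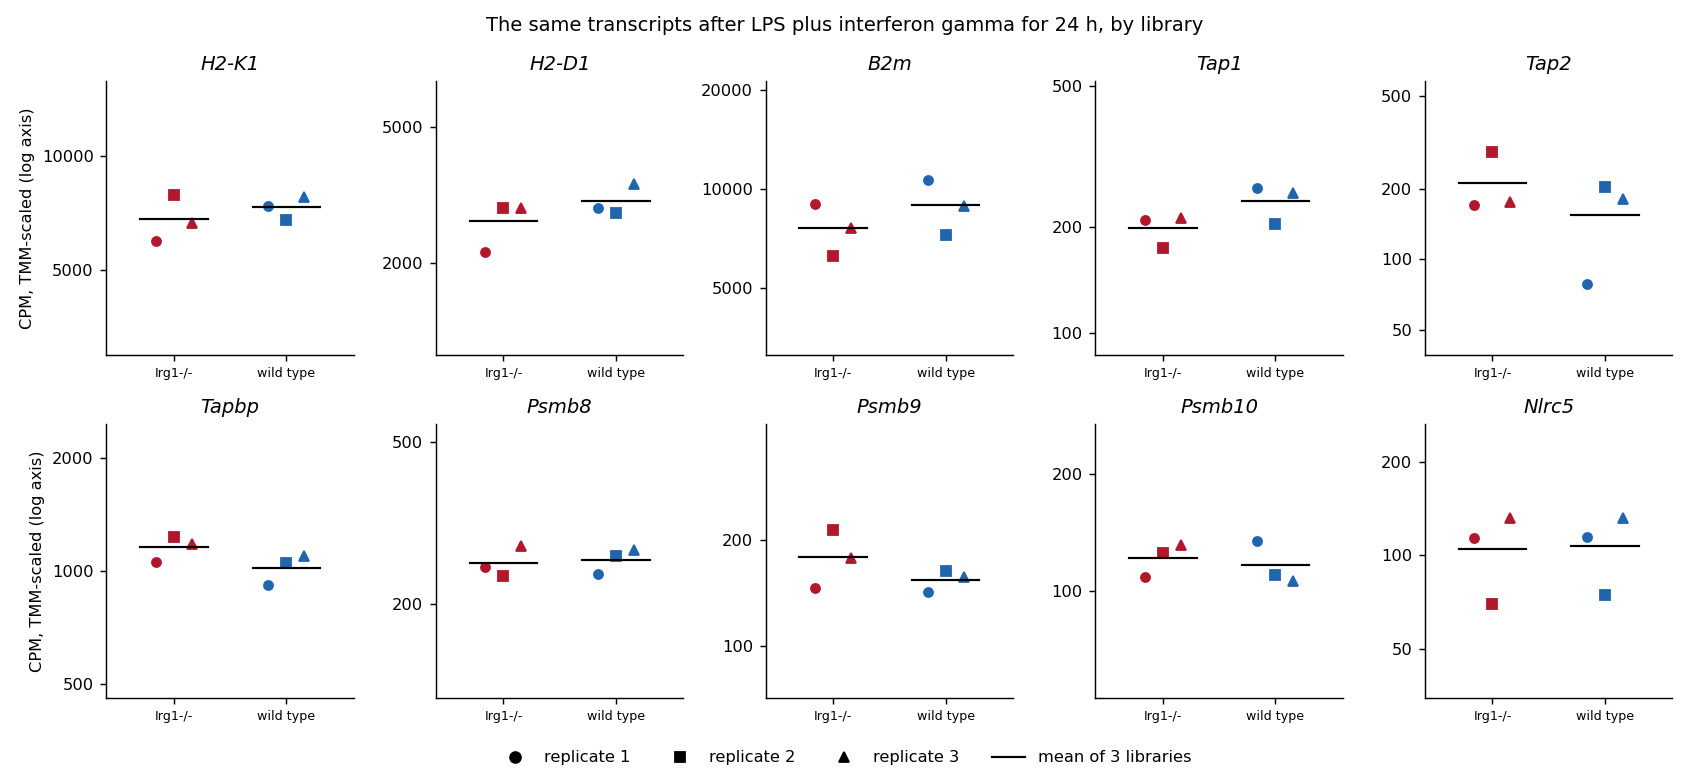
TMM-scaled CPM of the 10 genes (log axis) in the 6 libraries of experiment 2, Irg1-/- left of wild type, after LPS plus interferon gamma for 24 h; shapes give the replicate and lines the mean. The groups overlap in all 10 panels, and for Tap2 wild-type replicate 1 is the low library (78.4 CPM).

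Psmb9 was at 146, 214 and 177 CPM in Irg1-/- libraries, against 142, 164 and 157 CPM in wild-type libraries. Without the block its log2 value was 0.21 ± 0.19 (edgeR adjusted p = 0.945). H2-K1 was at 5967, 7908 and 6646 CPM in Irg1-/- libraries, against 7401, 6767 and 7787 CPM in wild-type libraries, and the groups overlapped. Tap2 was at 171, 288 and 175 CPM in Irg1-/- libraries, against 78.4, 203 and 182 CPM in wild-type libraries. Without the block the Tap2 log2 value was 0.45 ± 0.33 (edgeR adjusted p = 0.913). The groups overlapped. Psmb9 over Psmb6 was 1.30 ± 0.29 on the log2 scale in Irg1-/- libraries, against 0.54 ± 0.15 in wild-type libraries (SD, n = 3 each), with no overlap. The exact permutation p of 0.1 is the smallest possible (0.15 adjusted over 15 tests). Log2 fold changes of the 3 constitutive subunits lay between -0.56 and -0.03 here and none passed. The ratio differed by log2 0.76 and Psmb9 itself by 0.21, so most of the difference lay in the denominator, Psmb6. Psmb8 over Psmb5 was 2.11 ± 0.08 in Irg1-/- cells against 1.86 ± 0.17 in wild-type cells (exact permutation p = 0.2), with overlap. That difference was log2 0.25, against -0.02 for Psmb8 itself. Of the listed related genes 0 passed here by edgeR without the block in any list.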

How the data were processed

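The authors deposited raw counts per Entrez gene, 1 table per experiment. Alignment with STAR, counting with HTSeq and build mm10 are per the submitters' processing notes, which also name DESeq2, without versions. Per the labels' protocols, barcoded oligo-dT primers gave strand-specific 3′ libraries with 12 PCR cycles. Molecular identifiers are not mentioned, counts may therefore hold PCR copies, and detection limits cover counting error only. Symbols came from RefSeq (GRCm38.p6; 23969 of 24052 genes matched).

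Quasi-likelihood fits (edgeR 4.0.16, R 4.3.3) were made per experiment on group means, after TMM scaling and a filterByExpr minimum count of 10, with F tests and Benjamini-Hochberg adjustment over all tested genes (10285 and 9491), called under 0.05. DESeq2 1.42.0, other scalings, no filter, a replicate block, 2-group fits and leaving out each library were alternatives, and the scripts were tested on simulated data. Ratios used exact permutation tests (scipy 1.17.1). The members and related lists, and the rule for naming related genes (members always, and per list and comparison up to 4 called genes in each direction), were chosen with earlier results of these data known. Replicate numbers pair the libraries of experiment 2 (correlations of deviations 0.354 to 0.455 in 3 of 3 pairs). In experiment 1 these correlations ran from -0.141 to 0.231 (6 of 18 pairs over 0.1). They were 0.058 to 0.210 for DI with vehicle and 0.097 to 0.174 for DI plus LPS with LPS. For the other combinations of groups the lowest lay below 0. A weak pairing in experiment 1 is therefore not excluded.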

Additional observations from a re-analysis of the deposited data

Results flagged for a closer look

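Of 89 related genes tested, 4 (4.49%) had an LPS response that differed between DI-treated and vehicle-treated cells by the interaction test across all genes, a share near the 2.91% of all genes called. With library totals the same 4 and H2-T10 and Hfe were called (6 of 89). The nonclassical class I gene H2-M2 had a log2 LPS response of 6.71 after DI and 4.64 without it, a difference of 2.06 (edgeR adjusted p = 0.0208), which passed in 7 of 12 fits that left out a library. Fcgrt had responses of 0.10 after DI and -1.56 without it, a difference of 1.66 (edgeR adjusted p = 0.0455), which passed in 1 of 12 such fits. The proteasome cap gene Psmc1 had responses of 0.98 after DI and -0.73 without it, a difference of 1.71 (edgeR adjusted p = 0.0499), which passed in 2 of 12 such fits. Irf8 had responses of -0.85 after DI and 2.99 without it, a difference of -3.84 (edgeR adjusted p = 0.00129), which passed in 12 of 12 such fits and was -3.09 without LPS replicate 3.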

How the results depend on the processing

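Members passing in DI against vehicle numbered 1, against 2 with DESeq2 or without the filter on low counts, 3 with only the compared groups fitted, and 0 to 3 with a library left out. In DI plus LPS against LPS they numbered 5, against 3 with library totals as the only scaling, 2 with only the compared groups, and 2 to 5 with a library left out. All genes passing in DI against vehicle numbered 292, against 623 with DESeq2, 458 without the filter, 1013 with only the compared groups and 140 to 803 with a library left out. For the interaction they numbered 299, against 762, 497 and 132 to 806 (DESeq2, no filter, a library left out). In LPS against vehicle they numbered 3529, against 5803 with library totals and 2108 with only the compared groups. In DI plus LPS against LPS they numbered 1636, against 653 with only the compared groups and 885 to 1948 with a library left out, and in DI plus LPS against DI 1948, against 3196 with only the compared groups. In Irg1-/- against wild type they numbered 6, against 44 with DESeq2, 40 without the filter, 594 with the replicate block (1 member) and 3 to 6 with a library left out. In experiment 1 the correlations between same-numbered libraries were lower. The replicate block there gave 3371 genes for LPS against vehicle, 276 for DI against vehicle and 1464 for DI plus LPS against LPS. It gave 1905 for DI plus LPS against DI and 257 for the interaction. The block changed 1 member call, B2m in DI plus LPS against DI (edgeR adjusted p = 0.0398).

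Scaling by library totals alone, chosen after seeing the data, moved the median of all genes in LPS against vehicle from -0.24 to -1.17 on the log2 scale, and there H2-D1 and B2m no longer passed (log2 0.41 and 0.14). The percent of calls that were higher, with TMM and with totals, was 46.5 and 14.7 for LPS against vehicle, 46.9 and 27.1 for DI against vehicle, 52.7 and 63.1 for DI plus LPS against LPS, 60.1 and 25.9 for DI plus LPS against DI, 47.8 and 71.4 for the interaction, and 16.7 and 33.3 for Irg1-/- against wild type. Signs reversed with totals for H2-D1 in DI against vehicle (-0.10), for B2m and Tapbp in the interaction (0.11 and 0.20) and for Psmb8 and Nlrc5 in Irg1-/- against wild type (0.017 and 0.018). With a library left out the log2 value of H2-D1 ranged from -0.0099 to 0.27 in DI against vehicle, from -0.81 to 0.52 in DI plus LPS against LPS and from -0.93 to 0.40 in the interaction. In the interaction H2-K1 ranged from -1.13 to 0.55 and Nlrc5 from -0.11 to 0.67. In Irg1-/- against wild type Psmb8 ranged from -0.083 to 0.028, Nlrc5 from -0.23 to 0.20, and Psmb10 over Psmb7 from -0.061 to 0.27. Beyond the alternatives' own construction (other scaling, fewer samples), the cause was not tested. Nlrc5, with as few as 14 counts in a library, is the member most limited by depth.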
